A study of Mus musculus with 24 samples.

Results

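The Serpin family was measured in brain, heart and liver of mice given an Ephedra herba extract by mouth. Its members were all genes on the array whose annotated symbol starts with Serpin, and a gene with several probes was represented by the one whose mean was highest. They numbered 48 of 16110 genes, read by 59 of 25697 probes. Members were taken by name, with earlier results of these data known, while the probe of a gene was taken by its measured mean.

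Serpins are proteins that share 1 fold, and most of them inhibit serine proteases by a suicide mechanism: the protease cuts an exposed loop, the loop snaps into the body of the serpin, and the protease is carried along and held inactive. The liver secretes a large set of them into plasma, where they restrain clotting, clot dissolving, complement and neutrophil elastase, and some serpins no longer inhibit proteases and carry hormones or chaperone collagen instead. Clade B serpins lack a classical signal peptide and act mostly inside cells, where they protect against proteases released from granules and lysosomes.

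All mice were 5-week-old female C57BL/6 animals. An aqueous Ephedra herba extract was given orally at 50 mg/kg, and tissue was taken after 1, 6, 12 and 24 hours and after 3, 5 and 10 days, besides an untreated control. Each tissue and time is 1 array, which makes 8 arrays per tissue, 24 in all and no replicate of any tissue at any time. The labels do not say whether animals were pooled, whether 1 animal gave all 3 tissues or whether dosing was repeated.

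Values are the deposited log2 values, in which 0 lies near the median of each array. The array medians ran from -0.02 to 0.0026. A gene above that median was counted as present, and 27 members that did so on at least 4 of the 24 arrays were tested. The other 21 were not, and 17 of the 48 members (35.4%) lay above the median on 0 arrays, as did 22.7% of all genes. The upper end of the values differed between arrays, the 95th percentile running from 4.13 to 5.36 among liver arrays, and how arrays were scaled to each other is not given, which bears on every difference between tissues. In a tissue, fewer cells of a type and less RNA per cell cannot be told apart.

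Members above the median on all 8 arrays numbered 5 in brain, 7 in heart and 18 in liver. In tests of 1 tissue against another (limma, time as a block, 8 arrays per tissue, adjusted over 10934 genes), 23 of the 27 tested members differed between liver and brain, 21 of them higher in liver and 2 lower. Among all genes tested, 76.2% were called in that contrast, with 30.6% higher and 45.6% lower in liver. Between liver and heart 25 members were called, 21 higher and 4 lower in liver, against 65.3% of all genes, 24.7% higher and 40.6% lower. Between heart and brain 14 were called, 11 higher and 3 lower in heart, against 71.4% of all genes, 34.3% higher and 37% lower. The median difference of the 27 members was 3.82 for liver minus brain, 3.00 for liver minus heart and 0.33 for heart minus brain. Over all genes tested it was -0.16, -0.12 and 0.03. Serpina7, Serpina11, Serpina12 and Serpinc1 passed the filter through their 8 liver arrays alone, with 0 brain and 0 heart arrays above the median. Serpina6, Serpina10, Serpinb1a, Serpinb6c and Serpinb8 also reached 4 arrays only with those of liver. Serpinb6b and Serpinb12 reached 4 only with those of heart. A higher level of any of these genes in that tissue was largely set by the filter, here and below.

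**Figure D1:**
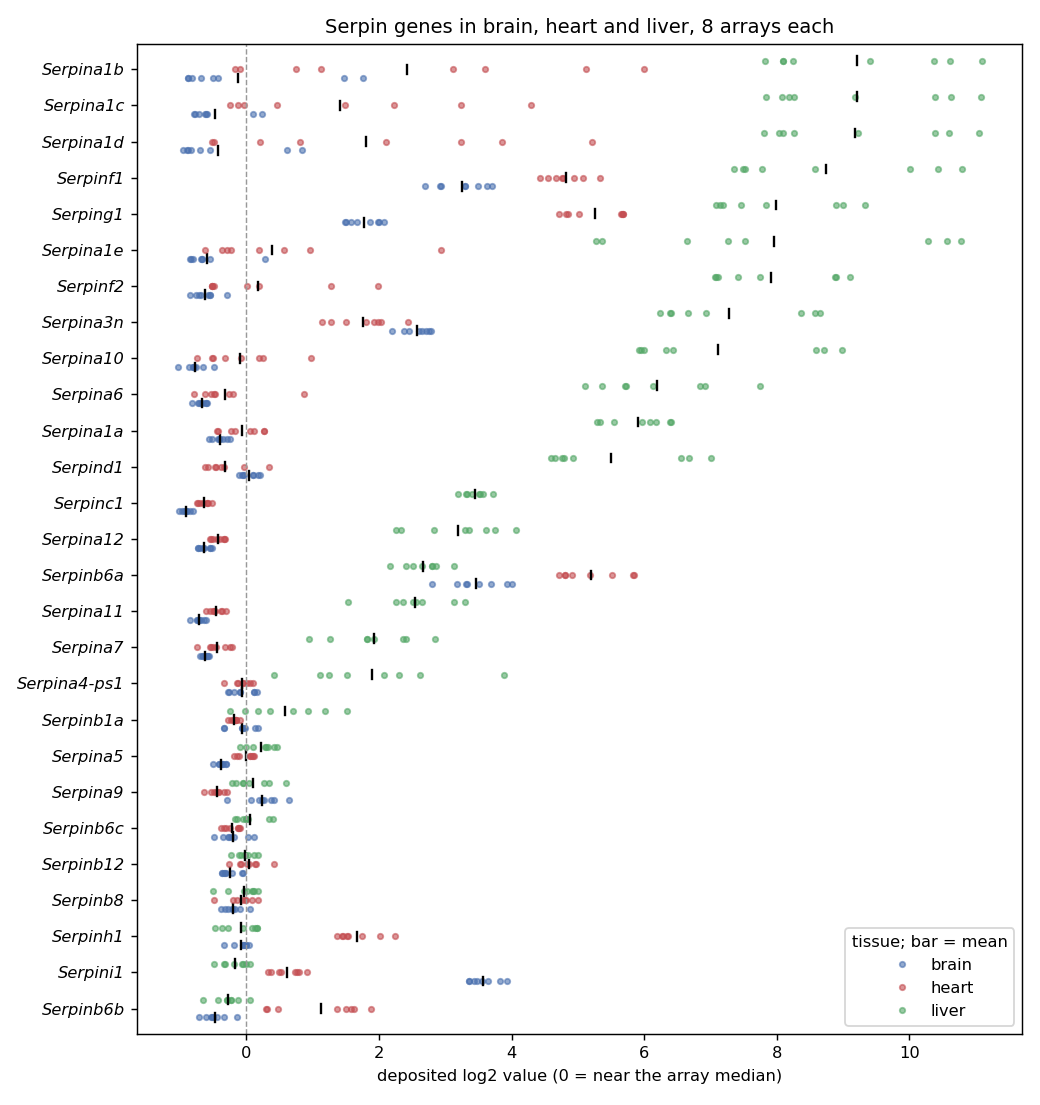
Deposited log2 values of the 27 tested Serpin genes (rows, laid out by their liver mean) on 8 brain, 8 heart and 8 liver arrays. Each point is 1 array and the black bar is the mean of 8 arrays. Most rows have their green liver points to the right, while Serpini1 stands highest in brain and Serpinb6a, Serpinb6b and Serpinh1 in heart.

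The genes lie in clusters: 14 members are on chromosome 12, 14 on chromosome 13 and 12 on chromosome 1. Of the 13 tested members on chromosome 12, 12 were higher in liver than in brain and 13 were higher in liver than in heart. Of the 4 tested members on chromosome 13, 2 were higher in liver than in brain and 1 was lower. Neighbouring copies of a cluster are alike in sequence, so probes of near-identical genes may share signal.

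The alpha-1-antitrypsin genes Serpina1a to Serpina1e show how alike such copies are just before their start. The following 106 bases per gene come from RefSeq on the GRCm38.p6 build, minus strand of chromosome 12, all upstream of the annotated start. Capitals mark GTTAAT, a core of sites bound by the liver factor HNF1, and the sequences are shown because the 5 genes were all far higher in liver.

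Serpina1a (chr12:103863625-103863730): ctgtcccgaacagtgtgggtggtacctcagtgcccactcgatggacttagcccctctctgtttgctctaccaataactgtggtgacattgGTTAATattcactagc

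Serpina1b (chr12:103738200-103738305): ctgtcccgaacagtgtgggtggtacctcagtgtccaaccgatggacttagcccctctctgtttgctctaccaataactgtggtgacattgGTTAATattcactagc

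Serpina1c (chr12:103904962-103905067): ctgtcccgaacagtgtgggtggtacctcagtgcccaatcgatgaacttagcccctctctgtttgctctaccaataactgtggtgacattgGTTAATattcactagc

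Serpina1d (chr12:103773634-103773739): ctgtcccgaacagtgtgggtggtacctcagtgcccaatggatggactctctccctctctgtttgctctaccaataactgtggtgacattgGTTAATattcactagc

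Serpina1e (chr12:103956960-103957065): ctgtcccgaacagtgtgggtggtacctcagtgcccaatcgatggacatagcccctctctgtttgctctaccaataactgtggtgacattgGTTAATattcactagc

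Position by position, the 10 pairs of these windows were 93.4% to 98.1% identical. The first base of GTTAAT lay 21, 26, 27, 16 and 78 bases before the annotated start of Serpina1a, Serpina1b, Serpina1c, Serpina1d and Serpina1e. Searched on both strands over the 250 bases before the start, GTTAAT was held by 10 of the 49 entries of the members and by 6.43% of all 32851 entries. Of the 9 members holding it, 5 are these near-identical copies, and Serpina7 was also higher in liver. Serpinb8, Serpinb3d and Serpini2 held it without being high there. Serpina3n, Serpina5, Serpina11, Serpina12, Serpinc1, Serpind1, Serpinf1 and Serpinf2 were higher in liver and did not hold it. A match describes letters and shows no bound site.

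The last 106 bases before the start of Serpinh1 and Serpini1 are shown as those of 2 genes highest in heart and in brain. Capitals mark each CG, of which the 250 bases before the start held 11 in Serpinh1 and 13 in Serpini1, but 2 to 5 in the Serpina1 genes, beside a median of 6 over all entries. Low counts were not particular to the Serpina1 genes: Serpinb6b, highest in heart, held 3, and the 2 listed starts of Serpinb6a held 2 and 20. The CG count was not tested against expression.

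Serpinh1 (chr7:99353240-99353345, minus strand): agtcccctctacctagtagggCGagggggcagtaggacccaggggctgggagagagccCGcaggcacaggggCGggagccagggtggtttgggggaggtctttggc

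Serpini1 (chr3:75557387-75557492, plus strand): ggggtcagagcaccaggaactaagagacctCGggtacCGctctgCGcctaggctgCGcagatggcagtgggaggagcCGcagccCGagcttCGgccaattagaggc

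Of the 11 secreted inhibitors of plasma proteases, 11 were tested, and 11 were higher in liver than in brain and than in heart. Of these, 10 lay above the median on all 8 liver arrays, and the exception was Serpina5, the protein C inhibitor, at -0.09 to 0.46 in liver. Serpinc1, which encodes antithrombin, the brake on thrombin, lay between 3.19 and 3.73 in liver, between -0.74 and -0.53 in heart and between -1.02 and -0.80 in brain. The 3 ranges did not overlap, and liver exceeded brain by 4.36 (SE 0.07, adjusted p = 2.12e-19). Heart and brain values lay near the low end of their arrays, where the 5th percentile untreated was -0.70 and -0.91. After quantile normalization over all 24 arrays the heart minus brain difference was 0.06 and was not called (limma, adjusted p = 0.630). The second probe of Serpinc1 was dimmer in liver, at 0.90 to 1.77.

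Serpina10, the protein Z-dependent inhibitor of clotting factor X, lay between 5.93 and 8.98 in liver, and liver exceeded brain by 7.90 (SE 0.40). Serpinf2 encodes alpha-2-antiplasmin, which stops plasmin from dissolving clots, and exceeded brain by 8.54 (SE 0.38), with liver values from 7.07 to 9.10. Its 3 probes were all high in liver, with medians of 7.58, 6.17 and 6.56. Serpind1, which encodes heparin cofactor II, a thrombin inhibitor, lay between 4.59 and 7.01 in liver, 5.46 above brain (SE 0.31). None of these liver ranges overlapped those of brain or heart.

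Serping1 encodes C1 inhibitor, which restrains complement and kallikrein. It was present in every tissue, with brain at 1.48 to 2.08, heart at 4.71 to 5.69 and liver at 7.09 to 9.33. The 3 ranges did not overlap. Heart exceeded brain by 3.49 (SE 0.34, adjusted p = 2.89e-08) and liver exceeded heart by 2.73 (SE 0.34).

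The alpha-1-antitrypsin genes had liver values of 5.30 to 6.40 for Serpina1a, 7.83 to 11.10 for Serpina1b, 7.84 to 11.08 for Serpina1c, 7.81 to 11.05 for Serpina1d and 5.28 to 10.78 for Serpina1e. All 5 were higher in liver than in brain, by 6.31 to 9.68. Serpina1b, Serpina1c and Serpina1d lay within 0.19, 0.23 and 0.19 of the highest value of the array on all 8 liver arrays. A level above that top could not show, so their liver values and the differences from other tissues are lower bounds where the signal was saturated, which was not tested. The limit falls on few probes, since 23 of 25697 lay within 0.5 of the top on all 8 liver arrays.

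Heart also carried Serpina1b, Serpina1c and Serpina1d, but unevenly. On the arrays of untreated, 1, 6, 12 and 24 hours and 3, 5 and 10 days, Serpina1b read 5.12, 6.00, 3.60, 1.13, 0.74, -0.17, -0.10 and 3.11 in heart. Serpina1d read 3.85, 5.21, 3.23, 0.81, 0.21, -0.52, -0.50 and 2.11, and Serpina1c 3.23, 4.29, 2.23, 0.46, -0.03, -0.25, -0.13 and 1.49. Thus the untreated, 1 hour, 6 hour and 10 day arrays were high and those of 3 and 5 days lay below the median.

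Some transcripts typical of hepatocytes were also high on these arrays. Of the 15 measured markers, 8 lay above the median on at least 1 heart array, and all 8 were highest on the untreated or the 1 hour array. Apoa1, a lipoprotein of liver and gut, read 4.26, 4.64, 3.57, 0.85, 0.26, -0.32, 0.13 and 2.27 in heart, and Apoa2, made by liver, 5.71, 6.84, 4.12, 1.69, 1.12, 0.54, 0.46 and 3.75. The mean level of the 15 markers ran from -0.13 at 3 days to 2.11 at 1 hour in heart, where 4 of them lay above the median on all 8 arrays and 7 on none, among them Alb at -0.66 on average. In liver that mean ran from 4.61 to 6.52, with 12 of the 15 above the median on all 8 arrays and 1 on none. The part of liver RNA in these heart values was not tested. Without the untreated, 1 hour, 6 hour and 10 day arrays of every tissue, an alternative added with the data in view, the heart minus brain difference was 0.58 in place of 2.55 for Serpina1b, 0.46 in place of 2.23 for Serpina1d and 0.49 in place of 1.88 for Serpina1c, and none was called. These are the arrays on which the 3 genes were themselves high, so that choice of arrays fixes a smaller difference and bears on no source.

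**Figure D2:**
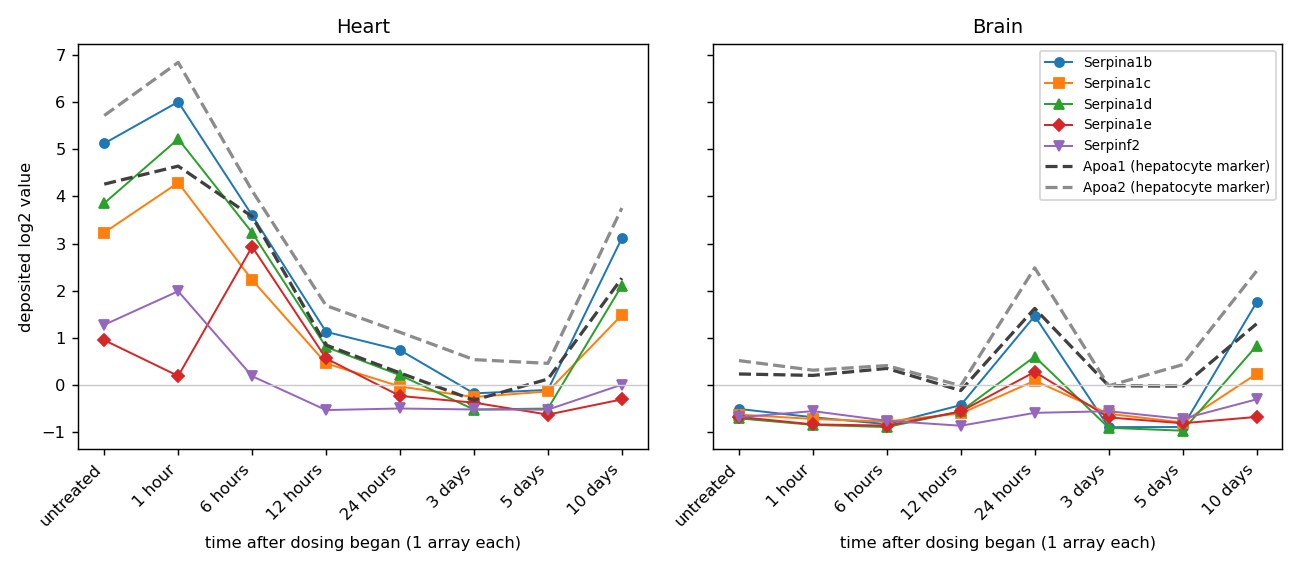
Deposited log2 values of 5 Serpin genes (solid) and of the hepatocyte markers Apoa1 and Apoa2 (dashed) on the 8 heart arrays (left) and the 8 brain arrays (right), 1 array per time. In heart, Serpina1b falls from 6.00 at 1 hour to -0.17 at 3 days beside Apoa2, which goes from 6.84 to 0.54; in brain both stand up on the 24 hour and 10 day arrays.

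Serpinf2 in heart had the same outline, at 1.28, 1.99, 0.19, -0.53, -0.49, -0.52, -0.52 and 0.01. Serpina6 rose on 1 heart array, to 0.86 at 1 hour, and read between -0.79 and -0.20 on the others. Serpina1e did not share the outline: it read 0.95, 0.19, 2.93, 0.57, -0.23, -0.37, -0.62 and -0.30 in heart, with its peak at 6 hours.

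In brain, Serpina1b read -0.50, -0.68, -0.83, -0.42, 1.46, -0.89, -0.89 and 1.75. It was high on the 24 hour and 10 day arrays alone, as were Serpina1d at 0.60 and 0.83 and Serpina1c at 0.09 and 0.24, each otherwise at or below -0.56. Serpina1e reached 0.28 at 24 hours and lay at or below -0.56 elsewhere. Apoa2 read 2.48 and 2.42 on those 2 brain arrays and at most 0.52 on the other 6. The mean of the hepatocyte markers was 0.52 and 0.54 there and at most 0.07 on the others.

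Both hormone carriers were higher in liver. Serpina6, corticosteroid-binding globulin, lay between 5.10 and 7.74 in liver and below the median on all 8 brain arrays, a difference of 6.87 (SE 0.30). Serpina7, thyroxine-binding globulin, lay between 0.94 and 2.84 in liver and below the median on all brain and heart arrays, with liver 2.55 above brain (SE 0.16).

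Serpina3n, a mouse relative of alpha-1-antichymotrypsin that is induced in reactive astrocytes and in the acute-phase liver, was present in all 3 tissues. It lay between 2.20 and 2.78 in brain, between 1.13 and 2.44 in heart and between 6.24 and 8.65 in liver. The brain and heart ranges overlapped, and the heart minus brain difference was -0.81 (SE 0.32, adjusted p = 0.0315), a call lost when the untreated, 24 hour, 3 day or 5 day arrays were left out in turn (adjusted p = 0.0549 to 0.0783). Serpina3b, the other measured gene of its group, was above the median on 0 arrays.

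Among the other clade A genes, Serpina12 encodes vaspin, a serpin studied in fat and liver. It lay between 2.25 and 4.06 in liver and at or below -0.32 elsewhere, 3.82 above brain (SE 0.18). Its second probe showed no such level in liver, at -0.23 to 0.13. Serpina11 lay between 1.53 and 3.29 in liver, and Serpina4-ps1, annotated as a pseudogene, between 0.42 and 3.88, and both were higher in liver than in brain and heart. Serpina9, which marks germinal centre B cells, was faint throughout, with brain at -0.30 to 0.64, heart at -0.65 to -0.29 and liver at -0.22 to 0.59.

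Serpinf1 encodes PEDF, a secreted factor that does not inhibit proteases and acts on vessels and neurons. It was present in all 3 tissues, with brain at 2.69 to 3.71, heart at 4.43 to 5.34 and liver at 7.35 to 10.80, with no overlap. Heart exceeded brain by 1.57 (SE 0.39, adjusted p = 0.00156) and liver exceeded brain by 5.50 (SE 0.39).

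Serpinh1 encodes HSP47, the chaperone that folds procollagen in the endoplasmic reticulum. It lay between 1.37 and 2.25 in heart, between -0.34 and 0.04 in brain and between -0.47 and 0.17 in liver. Heart stood clear of both, by 1.75 over brain (SE 0.10, adjusted p = 9.01e-12) and by 1.74 over liver. Brain and liver overlapped, and their difference was 0.0038 (SE 0.10). Of the 17 tested collagens and collagen enzymes, 14 were higher in heart than in brain and 0 lower, among them Col4a1 by 3.53 and Col1a1 by 2.75, and 14 were lower and 2 higher in liver than in heart.

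Serpini1 encodes neuroserpin, an inhibitor of tissue plasminogen activator made by neurons. It lay between 3.36 and 3.93 in brain, between 0.33 and 0.92 in heart and between -0.49 and 0.05 in liver. The ranges did not overlap, and the heart minus brain difference was -2.96 (SE 0.11, adjusted p = 3.32e-14). Plat, which encodes that activator, read between -0.59 and -0.23 in brain, below the median on all 8 arrays. Serpini2 lay above the median on 0 arrays.

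The 25 clade B genes lay mostly in the lower part of each array: 15 (60%) were above the median on 0 arrays, beside 22.7% of all genes, among them Serpinb2, which encodes plasminogen activator inhibitor type 2, and Serpinb9, an inhibitor of granzyme B, and 6 were tested. Serpinb6a, an intracellular inhibitor of cathepsin G, lay between 4.72 and 5.84 in heart, between 2.80 and 4.0 in brain and between 2.17 and 3.13 in liver. Heart did not overlap the others and exceeded brain by 1.73 (SE 0.15, adjusted p = 5.55e-09) and liver by 2.54 (SE 0.15). Serpinb6b, its close relative, lay between 0.30 and 1.88 in heart and between -0.72 and -0.14 in brain, a difference of 1.61 (SE 0.18).

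Serpinb1a, an inhibitor of neutrophil elastase and cathepsin G, lay between -0.24 and 1.52 in liver and exceeded brain by 0.64 (SE 0.16). Its liver range overlapped those of brain, -0.34 to 0.18, and heart, -0.28 to -0.10. Serpinb6c, Serpinb8 and Serpinb12 stayed within -0.50 and 0.41 on all 24 arrays. Of the granule proteases that clade B serpins inhibit, 4 of 8 measured were tested. The mean level of the 8 lay between -0.59 and -0.48 in brain, between -0.36 and -0.21 in heart and between -0.24 and 0.06 in liver. In brain, heart and liver 7, 6 and 4 of the 8 lay above the median on 0 arrays. These means thus lay low on the arrays and do not rank the tissues.

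The proteases and helpers that the plasma serpins act on were mostly liver genes as well. All 16 tested coagulation genes were higher in liver than in brain and than in heart, with median differences of 6.35 and 5.85. Of 8 tested complement genes 5 were higher in liver than in brain, among them Masp2 by 5.71. Of 4 tested genes of fibrinolysis, only Plg, the precursor of plasmin, was higher in liver than in brain, by 8.86, while Thbd, a receptor that turns thrombin to protein C activation, was lower in liver than in heart, with a difference of -1.84. The antiproteases of other families divided, with 5 of 12 higher in liver than in brain, among them Ambp by 9.60, and 5 lower.

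Whether members changed after dosing was tested first with the 3 tissues as replicates of a time. No member was called at any of the 7 times or by an F test over them (limma, tissue as a block, 3 arrays against 3). At an unadjusted p under 0.05 stood 0, 2, 3 and 3 members at 1, 6, 12 and 24 hours and 1, 2 and 0 members at 3, 5 and 10 days. At that same threshold stood 0.869%, 18.7%, 21.1% and 17.6% of all genes at the hours and 12.6%, 18.1% and 1.15% at the days, so that the members were no larger a share than all genes at any time. After adjustment, 0%, 3.33%, 5.37%, 2.7%, 0.32%, 1.98% and 0% of all genes were called at these times and 4.31% by the F test.

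The member nearest to a call was Serpinh1 at 12 hours. It read -0.00091 in brain, 2.25 in heart and 0.17 in liver untreated, and -0.34, 1.53 and -0.36 at 12 hours. It was lower in 3 of 3 tissues, with a mean difference of -0.53 (SE 0.16, adjusted p = 0.0586). The adjusted p was 0.0492 with the mean of a gene's probes and 0.0482 with a variance trend and robust moderation, and 0.171 without the 12 hour brain array.

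At single times, Serpinb6a and Serping1 came past the threshold when the liver arrays were left out. By the F test over times they were also called after quantile normalization within tissues (adjusted p = 0.0289 and 0.0281), and Serpinb6a after quantile normalization over all arrays (adjusted p = 0.0309). These 2 F tests called 902 and 834 of all genes tested. With brain and heart alone, Serpinb6a was lower at 6, 12 and 24 hours and 5 days, with differences of -0.80 to -1.11. Serping1 was lower at 6, 12 and 24 hours, with differences of -0.64 to -0.73. That fit called 1487, 2710, 1635 and 1374 of all genes tested at 6, 12 and 24 hours and 5 days. In brain Serpinb6a read 4.0 untreated and 3.93, 3.31, 2.80, 3.18, 3.50, 3.33 and 3.70 afterwards, and in heart 5.83 untreated and 5.84, 4.80, 4.81, 4.72, 5.18, 4.91 and 5.52. The untreated, 1 hour and 10 day arrays were high in both tissues and did not overlap the other 5. In liver Serpinb6a read between 2.17 and 3.13 with no such split.

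**Figure D3:**
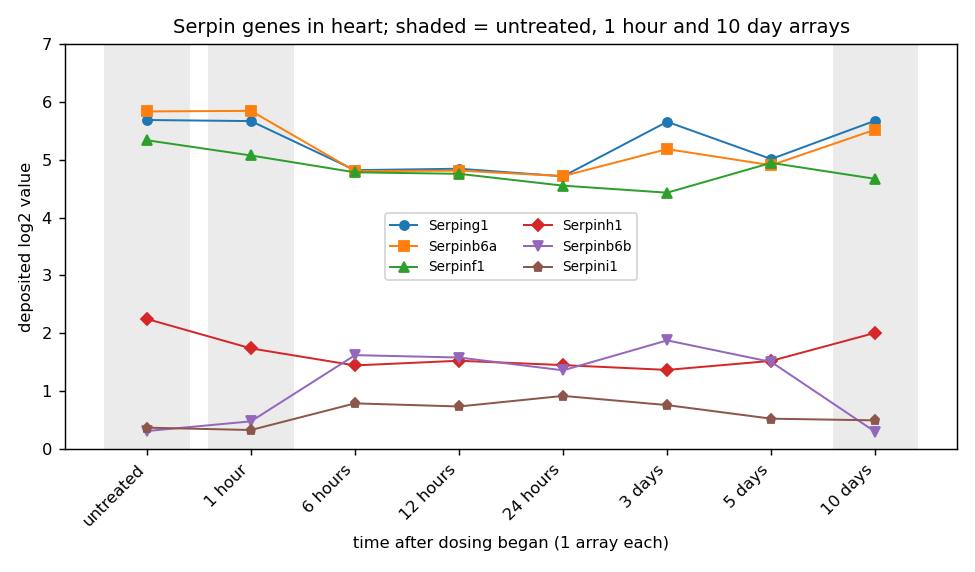
Deposited log2 values of 6 Serpin genes on the 8 heart arrays, 1 array per time, with the untreated, 1 hour and 10 day arrays shaded. Serpinb6a, Serping1 and Serpinh1 stand higher, and Serpinb6b and Serpini1 lower, on the shaded arrays than on the other 5.

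The untreated, 1 hour and 10 day arrays resembled each other across all genes, which was noticed in the values and then used to group them. In heart, 4 tested members (Serpinb6a, Serpind1, Serping1 and Serpinh1) were higher on all 3 of them than on any of the other 5, where 24.4% of all tested genes were. Serpinb6b and Serpini1 were lower on all 3, where 7.23% of genes were. Serpinb6b read 0.31, 0.48 and 0.30 on these arrays and 1.62, 1.58, 1.36, 1.88 and 1.51 at 6, 12 and 24 hours and 3 and 5 days. In brain 3 members were higher (18.9% of genes) and 1 lower (7.67%), and in liver 1 was higher (4.38%) and 5 lower (4.06%). Time after dosing and this likeness of arrays cannot be told apart in these samples.

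Treated arrays were then set against the untreated array within each tissue, with 1 spread shared by all tissues (limma, 7 arrays against 1, the lone array being assumed to vary like the others). No member was called in brain, heart or liver, where 0%, 0.101% and 0% of all genes were, nor for a difference between tissues, where 0.0366% were. At an unadjusted p under 0.05 stood 0, 2 and 1 members of 27, beside 3.44%, 5.64% and 2.8% of all genes. In heart these were Serpinh1, at 2.25 untreated and 1.58 on average in treated arrays, and Serpinb6b, at 0.31 and 1.25. The untreated heart array also carried 6 white fat markers at a mean of 1.77, against -0.10 to 0.37 on the other heart arrays, and their part in these values was not tested. In liver it was Serpina7, at 2.84 and 1.79.

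The first day (1, 6, 12 and 24 hours, 4 arrays) was also set against the later days (3, 5 and 10 days, 3 arrays). No member was called in brain or heart, where 0% of all genes were and 0 members had an unadjusted p under 0.05. In liver 7 of 27 members were called and all 7 were higher on the first day. Among all genes 13.2% were called there, 10.8% higher and 2.41% lower. The 1 hour liver array carried 6 markers of exocrine pancreas at a mean of 4.41, against 0.41 to 0.70 on the other 7 liver arrays. The part of that signal was not tested. Without the 1 hour array 11 members were called, 10 higher and 1 lower, beside 3768 of all genes tested, 2922 of them higher. The median difference was 0.36 over the 27 members and 0.10 over all genes tested. The F test for unequal differences among tissues called 0 members and 0% of genes, with 7 members and 1574 of 10934 genes at an unadjusted p under 0.05.

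Serpina1e had the widest difference of the 7. In liver it read 7.52 untreated, 7.27, 10.78, 10.57 and 10.28 at 1, 6, 12 and 24 hours, and 5.28, 6.64 and 5.37 at 3, 5 and 10 days. The first-day arrays did not overlap the later ones, and the difference was 3.96 (SE 0.72, adjusted p = 0.0128). At 6 and 12 hours Serpina1e was itself the highest value on the array, so these are lower bounds where the signal was saturated, which was not tested. Serpina4-ps1 read 1.24 untreated, 2.07, 3.88, 2.62 and 2.30 on the first day and 0.42, 1.51 and 1.11 later. These did not overlap either, and the difference was 1.70 (SE 0.30, adjusted p = 0.0128).

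The other 5 called members were near the untreated level at 1 hour and high on 3 arrays. Serpina10 read 6.33 untreated, 5.99, 8.98, 8.59 and 8.71 on the first day and 5.96, 6.44 and 5.93 later, a difference of 1.96 (SE 0.50, adjusted p = 0.0254). Serpinf1 read 7.78 untreated, 7.52, 10.43, 10.01 and 10.80, then 7.35, 8.57 and 7.49, a difference of 1.88. In both, the 1 hour array lay among the later days, so the groups overlapped.

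Serpind1 read 4.66 untreated, 4.76, 7.01, 6.56 and 6.68 on the first day and 4.79, 4.92 and 4.59 later, a difference of 1.48. Serpina3n read 6.66 untreated, 6.40, 8.65, 8.58 and 8.37, then 6.40, 6.93 and 6.24, a difference of 1.48. Serping1 read 7.46 untreated, 7.15, 9.0, 8.89 and 9.33, then 7.18, 7.84 and 7.09, a difference of 1.22. In all 3 the 6, 12 and 24 hour arrays were high and the groups overlapped through the 1 hour array.

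Not every liver serpin moved so. Serpinc1 read 3.53 untreated, 3.40, 3.56, 3.19 and 3.32 on the first day and 3.32, 3.73 and 3.50 later, a difference of -0.15 (SE 0.11) that was not called. Serpina1a differed by 0.17 (SE 0.23), and by -0.67 after quantile normalization over all arrays (adjusted p = 0.0404). Serpina7 read 2.84 untreated, 2.36, 2.40, 1.26 and 0.94 on the first day and 1.82, 1.82 and 1.93 later, lowest at 12 and 24 hours, with a difference of -0.11 (SE 0.25).

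**Figure D4:**
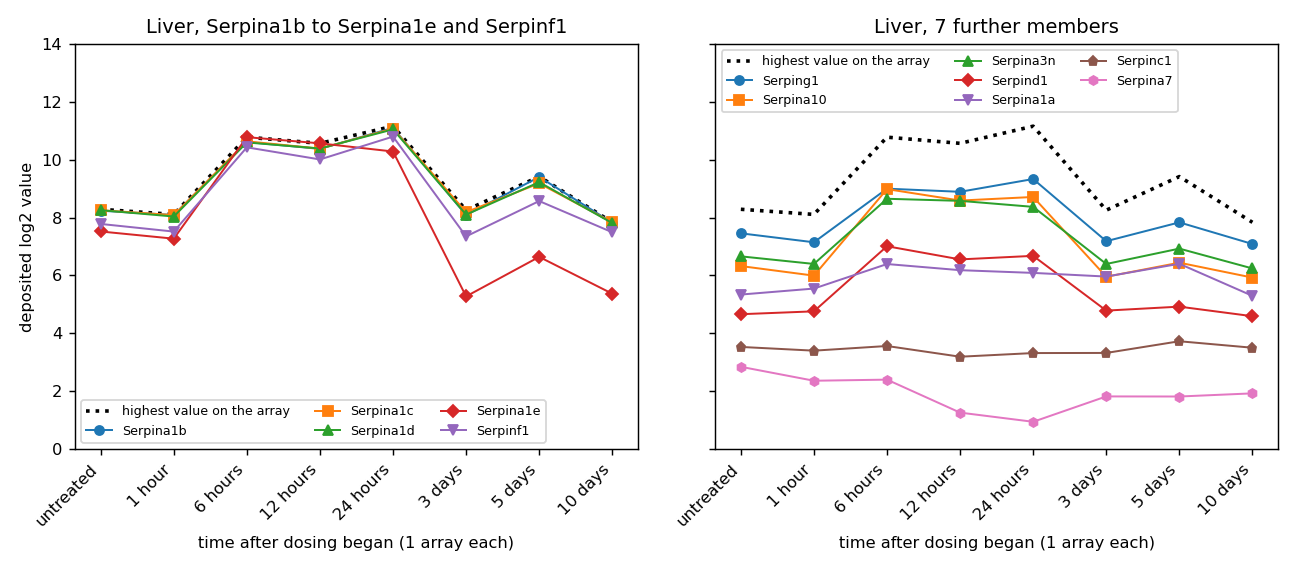
Deposited log2 values of 12 Serpin genes on the 8 liver arrays, 1 array per time, with the highest value of each array dotted. Serpina1b, Serpina1c and Serpina1d run along the dotted line, Serpina1e falls from 10.28 at 24 hours to 5.28 at 3 days, and Serpinc1 stays between 3.19 and 3.73.

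The top of the liver arrays was set partly by these genes: Serpina1e was the highest value at 6 and 12 hours and Serpina1c at 10 days. The highest value on the array was 8.29 untreated, 8.11, 10.78, 10.57 and 11.16 at 1, 6, 12 and 24 hours, and 8.26, 9.42 and 7.84 at 3, 5 and 10 days. The mean of the hepatocyte markers read 4.86 untreated, 4.77, 6.35, 6.09 and 6.52 on the first day and 5.12, 5.34 and 4.61 later. The part of array scale in the liver differences cannot be told apart from time on the deposited values alone.

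Rescaling changed most of the calls. With the arrays of a tissue given the same distribution by quantile normalization, the liver calls were 3 members: Serpina1e was higher on the first day by 2.58 (adjusted p = 0.0143), Serpina4-ps1 was higher by 1.51 (adjusted p = 0.00814) and Serpinc1 was lower, with a difference of -0.58 (adjusted p = 0.0327). Over all genes the split went from 1182 higher of 1445 called to 121 higher of 321. With quantile normalization over all 24 arrays it was 382 of 1038, and 6 members were called, 3 higher and 3 lower. Of the 27 members 9 changed sign under each of these normalizations, among them Serping1, from 1.22 to -0.15 and -0.13. No member was called without the 3 day array, with the array likeness as a block or with the spread of the liver arrays alone. Over all genes tested 0, 75 and 0 were called in these fits.

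**Figure D5:**
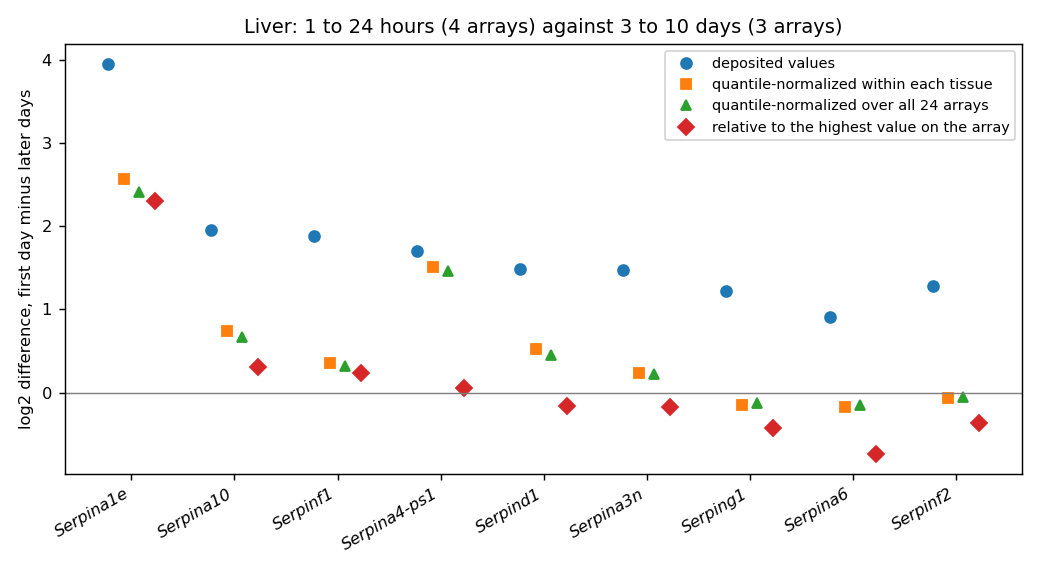
Log2 difference in liver between the first day (4 arrays) and the later days (3 arrays) for 9 Serpin genes, on the deposited values and under 3 other scalings. Serpina1e lies between 3.96 and 2.31, though under the scaling to the array highest it is fixed at 0 on the 6 and 12 hour arrays, where it is that value, while Serping1, Serpina6 and Serpinf2 fall below 0 under the 3 other scalings.

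In the pathways around these genes, the same liver contrast called 2 of 16 coagulation genes, F11 at 1.57 and F13b at 1.56, both higher on the first day. It called 4 of 8 complement genes, all higher, among them C1qb at 1.49 and Masp2 at 1.04. Of 12 acute-phase genes only Lcn2 was called, at 2.15. Of 9 glucocorticoid-induced genes Errfi1 at 1.91 and Cdkn1a at 1.20 were called, and 1 of 13 hepatocyte markers. Each share is read beside the 10.8% of all genes that were higher. These calls too rest on the deposited values and on all liver arrays, since 0 genes were called without the 3 day array.

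Single arrays were compared with the untreated array without a test, counting members at least 2-fold apart and above the median on the brighter array. In liver 13 of 48 members were higher at 6 hours, 12 at 12 hours and 12 at 24 hours, where 8.32%, 5.89% and 8.03% of all 16110 genes were. At the other times 0 members were higher at 1 hour (0.54% of genes), 0 at 3 days (0.497%), 2 at 5 days (0.944%) and 0 at 10 days (0.0683%). Members lower in liver numbered 0 at 1 hour (0.0745% of genes) and at 6 hours (0.745%), 1 at 12 hours (0.664% of genes), 2 at 24 hours (0.832%), 3 at 3 days (0.447%), 3 at 5 days (0.975%) and 1 at 10 days (0.161%). They were Serpina7, Serpina12, Serpina11, Serpina1e and Serpinb1a at 1 or more times.

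Serpina12 read 3.74 untreated in liver and 3.30, 4.06, 3.36, 2.25, 2.82, 2.34 and 3.62 afterwards, lowest at 24 hours and 5 days. Serpinb1a read 0.93 untreated and 1.19, 0.17, -0.02, 0.36, 0.70, -0.24 and 1.52 afterwards, lowest at 5 days. Both lay above their untreated level on 1 or 2 arrays, so the falls were not held through the course.

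In heart the members lower numbered 0 at 1 hour (0.242% of genes), 4 at 6 hours (3.09% of genes), 5 at 12 hours (2.94%), 6 at 24 hours (3.46%), 5 at 3 days (1.12%), 5 at 5 days (2.55%) and 5 at 10 days (0.478%). All of them were Serpina1b, Serpina1c, Serpina1d, Serpina1e, Serpinf2 or Serpinb6a. The widest was Serpina1b at 3 days, which fell by 5.29 on the log2 scale beside a fall of the hepatocyte marker mean from 1.65 to -0.13. Members higher in heart numbered 3 at 1 hour (0.211% of genes), which were Serpina1c, Serpina1d and Serpina6, and 2 at 6 hours (0.975%), which were Serpina1e and Serpinb6b. Serpinb6b was the 1 member higher at 12 hours (0.962%), 24 hours (0.732%), 3 days (0.683%) and 5 days (0.826%), and 0 were higher at 10 days (0.0186%).

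In brain Serpina1b and Serpina1d were the 2 members higher at 24 hours (1.44% of genes) and at 10 days (0.0869%), the arrays on which Apoa2 was high. At the other times 0 members were higher, where 0.0186%, 0.85% and 2.04% of genes were after 1, 6 and 12 hours, and 0.503% and 1.74% after 3 and 5 days. Serpinb6a at 12 hours was the 1 member lower in brain, where 6.52% of genes were. At the remaining times 0 members were lower, beside 0.0435% of genes at 1 hour, 0.701% at 6 hours, 1.19% at 24 hours, 0.0993% at 3 days, 1.01% at 5 days and 0.0248% at 10 days.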

How the data were processed

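Expression was measured on 24 Illumina bead arrays from brain, heart and liver. Per the labels' protocols, total RNA was amplified to biotinylated cRNA. The table the authors deposited holds log2 values for 25697 probes, with base 2 assumed since no label states it. How they corrected background and normalized, and with what software, is not given in the sources used here. Deposited values show arrays centred near 0. A second table was not used, because its 24 value columns match no label.

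Symbols came from the platform annotation (23141 probes with 1 symbol), and a gene was its probe with the highest mean. The 10934 genes above the array median on at least 4 of 24 arrays were fitted in R 4.3.3 using lmFit and eBayes of limma 3.58.1, as two-sided tests that were first tested on simulated data. Benjamini-Hochberg adjustment ran over all of them, and an adjusted p under 0.05 made a call. Fits used time or tissue as a block, or 3 phases (untreated, first day, later days) per tissue with a shared spread. A single-array change needed a factor of 2. Values on every array are given for the 6 members with the highest mean in a tissue, those called in a contrast of times, and the 4 widest single-array changes each way. Alternatives were 2 quantile normalizations, other filters, the mean of probes, a variance trend, left-out arrays and array blocks, and 3 were chosen after seeing the data. Since no tissue and time has a replicate, the spread between these samples, across times or tissues, is all that p-values measure, and the number of arrays limits the precision. Members, lists and tests were chosen with earlier results of these data known. Promoter sequences are RefSeq's on GRCm38.p6, which placed 41 members.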

Additional observations from a re-analysis of the deposited data

Results flagged for a closer look

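Serpina1e at 6 hours in heart, at 2.93, stood apart from the other 7 heart arrays, of which the nearest was the untreated array at 0.95. The gap was 0.556 of the whole range, above Dixon's 95% critical value for 8 arrays. Such a gap appears by chance in about 1 in 20 groups, and 46 groups of a gene and a tissue were checked. Serpina1e in liver read 10.78 on the array of the same time, its highest value there, while Serpina1b, Serpina1c and Serpina1d in heart were lower at 6 hours than untreated.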

How the results depend on the processing

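Counts of called members between tissues stayed within 1.5 times of 14, 23 and 25 under every alternative except testing all 48 members. That gave 33 for heart minus brain, 44 for liver minus brain and 41 for liver minus heart. Of all 16110 genes, 11914, 13176 and 11173 were called in these 3 contrasts. Leaving out each time gave 13 to 14, 22 to 24 and 24 to 25. Against untreated, 12 hours called 1 member with the mean of probes and 1 with a variance trend, beside 637 and 571 of all genes. The F test over times called 2 with quantile normalization within tissues and 1 over all arrays, beside 902 and 834 of all genes. Leaving out each tissue gave 0 to 2 members at 6, 12 and 24 hours and by the F test, and 0 to 1 at 5 days. The upper counts came without liver. Of all genes, 1487, 2710 and 1635 were called there at 6, 12 and 24 hours, 1866 by the F test and 1374 at 5 days. For treated against untreated liver, leaving out arrays gave 0 to 1.

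The 7 liver members of the first day became 3 with quantile normalization within tissues. They became 0 with the spread of liver alone and 0 with array likeness as a block. Over all genes 321, 0 and 75 were called in these fits. Leaving out each array gave 0 to 11 members, with 0 without 3 days and 1 without 6 hours. It gave 2 without 12 hours, 24 hours or 10 days and 11 without 1 hour. Without 3 days, 6 hours and 12 hours, 0, 20 and 35 of all genes were called. Without 24 hours, 10 days and 1 hour, 67, 204 and 3768 were. Values relative to the array's highest, a scaling chosen after seeing the data that moved the median of all genes from 0.10 to -1.55, called 16 members, 1 higher and 15 lower, by its construction. Of the 27 members 15 turned sign under that scaling, as one that lowers all genes would give, among them Serpina3n (-0.17), Serpina6 (-0.74), Serpina9 (-1.25), Serpind1 (-0.17), Serpinf2 (-0.37) and Serping1 (-0.43). Under quantile normalization within tissues and over all arrays 9 turned: Serpina1a (-0.78 and -0.67), Serpina6 (-0.17 and -0.15), Serpinf2 (-0.070 and -0.055), Serping1 (-0.15 and -0.13), and Serpina11, Serpina12, Serpina1b, Serpina1c and Serpina1d, each between -0.10 and -0.03. Single-array counts went from 3 to 7 in brain and from 8 to 13 in heart at 1.5-fold, and from 17 to 8 and 6 in liver under the same 2 normalizations. Where no cause is given, the cause was not tested. Pairing was limited to time as a block between tissues and tissue as a block between times, since no tissue and time has a replicate.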
